A study of Homo sapiens with 12 samples.

Results

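Expression of the genes that attach ISG15 or UBD to proteins was examined in 624Mel, an established human melanoma cell line. The 8 genes were taken by name: the modifiers ISG15 and UBD, the activating enzymes UBA7 and UBA6, the conjugating enzyme UBE2L6, the ligases HERC5 and HERC6, and the protease USP18. They are 8 of the 40173 gene IDs measured, and all 8 were among the 12773 gene IDs tested. ISG15, UBA7, UBE2L6, USP18 and HERC6 rose with IFNγ whether or not MITF was knocked down. UBD was listed at 0 without IFNγ and was highest, at a low level, in cells given both treatments. HERC5 and USP18 were lower after MITF knockdown with and without IFNγ by adjusted p. UBA6 overlapped between all conditions, and passed an adjusted p of 0.05 only for siMITF under IFNγ and only when replicate numbers were fitted as a block.

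ISG15 is a small protein made of a pair of ubiquitin-like domains, and cells make it in quantity after interferon. UBA7 activates it, UBE2L6 receives it from UBA7, and HERC5 is the main human ligase that places it on target proteins, many of them newly made. USP18 cleaves ISG15 from its targets and also dampens signalling at the type I interferon receptor. UBD, also called FAT10, is a related modifier that is activated by UBA6 and sends its targets to the proteasome, and it is known to respond to IFNγ together with TNF.

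RNA was sequenced in 4 conditions of 3 libraries each. In siCTRL cells were reverse transfected with a control siRNA, and in siMITF with siRNA against MITF, the transcription factor that maintains melanocyte identity. In siCTRL + IFNγ and siMITF + IFNγ, recombinant IFNγ was added at 5 ng/mL 24 h after the same transfections and left for 24 h, with harvest 48 h after transfection. All conditions share the one cell line and the transfection, the knockdown is partial and transient, and protein and ISG15 conjugates were not measured in these libraries. The comparisons address how MITF loss alters the response of melanoma cells to IFNγ. Values are TPM, a share of all transcripts in a library after correction for transcript length, so levels of different genes can be set side by side as TPM. The depth of each library is unknown, and fewer expressing cells and less RNA per cell cannot be told apart in bulk RNA.

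MITF lay between 158 and 246 TPM in the 6 siCTRL libraries and between 36.0 and 55.1 TPM in the 6 siMITF libraries. The melanocytic genes were abundant in siCTRL, and 13 of 14 markers of leukocytes, endothelium, fibroblasts and keratinocytes never rose above 2 TPM, the exception being LUM at up to 7.42 TPM. Mitochondrial genes held between 7.42% and 16.9% of a library's TPM. In each condition replicate 2 had the lowest mitochondrial share, and it also had the highest UBA6 and HERC6 level. Replicate 2 also had the highest level of both genes in each condition with TPM rescaled without mitochondrial genes. In siCTRL, HERC6 was then 1.45, 2.89 and 1.65. A part of the mitochondrial share in those levels was not tested beyond this.

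Promoter sequence was read for the members because several of them answered IFNγ very differently. RefSeq windows of GRCh38.p14, from 250 bases before to 50 after the annotated start, were found for 6 of the 8 members in 7 windows. UBA7 and USP18 have no entry. Searched on both strands were the core of the interferon-stimulated response element (a repeat of GAAA with any 2 bases between its copies), the gamma-activated site (TTCNNNGAA, where N is any base), the E-box CACGTG and the M-box TCATGTG. The last 2 are sequences that MITF can bind. The windows of ISG15, HERC5 and UBE2L6 are shown because ISG15 and UBE2L6 had the largest IFNγ changes and HERC5 did not count as changed by IFNγ, with motif matches in capitals.
ISG15, chr1:1013247-1013546, plus strand: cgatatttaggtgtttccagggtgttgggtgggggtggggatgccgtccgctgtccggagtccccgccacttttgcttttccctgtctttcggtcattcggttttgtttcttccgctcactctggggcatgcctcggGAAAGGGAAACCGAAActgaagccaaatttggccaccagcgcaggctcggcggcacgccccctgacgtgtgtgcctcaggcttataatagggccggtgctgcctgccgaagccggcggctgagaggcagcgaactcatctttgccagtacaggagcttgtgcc
HERC5, chr4:88456869-88457168, plus strand: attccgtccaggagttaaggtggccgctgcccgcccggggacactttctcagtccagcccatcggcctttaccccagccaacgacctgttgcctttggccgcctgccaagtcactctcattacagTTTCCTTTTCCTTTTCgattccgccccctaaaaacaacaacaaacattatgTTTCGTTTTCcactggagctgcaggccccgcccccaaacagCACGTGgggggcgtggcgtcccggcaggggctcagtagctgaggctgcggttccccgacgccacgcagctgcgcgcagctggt
UBE2L6, first window, chr11:57567886-57568185, minus strand: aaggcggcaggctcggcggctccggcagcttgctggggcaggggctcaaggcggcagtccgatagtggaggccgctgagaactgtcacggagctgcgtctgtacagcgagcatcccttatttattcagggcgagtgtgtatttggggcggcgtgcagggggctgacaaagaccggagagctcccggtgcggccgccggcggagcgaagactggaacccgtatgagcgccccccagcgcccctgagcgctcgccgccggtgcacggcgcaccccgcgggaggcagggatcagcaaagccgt

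The ISG15 window holds 2 response-element cores, at −113 to −104 and −107 to −98 from the start, which overlap each other. The HERC5 window holds 3 such cores read on its other strand, at −125 to −116, −119 to −110 and −74 to −65, of which the first and second overlap. It also holds CACGTG at −33 to −28. No match to any of the 4 motifs was found in the UBE2L6 windows or in those of HERC6, UBD and UBA6, which says only that these letters are not in those bases. Among all 35116 windows, 3.57% hold the response-element core, 7.66% the gamma-activated site, 7.26% CACGTG and 2.92% TCATGTG. A match is a sequence description and does not show binding.

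IFNγ raised the modifier ISG15 itself in both backgrounds. The gene (ENSG00000187608) lies on the plus strand of chromosome 1 at 1001138 to 1014540 of GRCh38. It measured 8.08, 6.31 and 11.0 TPM in siCTRL and 339, 303 and 312 TPM in siCTRL + IFNγ. It measured 5.69, 12.2 and 10.0 TPM after MITF knockdown, and 240, 240 and 269 TPM after both treatments. Every library with IFNγ was far above every library without it. Mean TPM was 37.6-fold higher with IFNγ in siCTRL and 26.8-fold higher in siMITF. On the log2(TPM + 1) scale the changes were 5.10 (SE 0.22, adjusted p = 2.28e-09) and 4.66 (SE 0.22, adjusted p = 4.86e-09) by limma.

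The activating enzyme UBA7 and the conjugating enzyme UBE2L6 started near 0 and rose with ISG15. UBA7 (ENSG00000182179, chromosome 3, 49805209 to 49813953, minus strand) measured 0.353, 0.413 and 0.306 TPM in siCTRL and 4.81, 6.31 and 4.74 TPM with IFNγ. In siMITF it measured 0.356, 0.226 and 0.369 TPM, and with IFNγ 6.70, 8.96 and 10.1 TPM. It thus stayed a low-level RNA, with the siMITF + IFNγ libraries highest and no overlap with any other condition. Its log2 change with IFNγ was 2.20 (SE 0.14, adjusted p = 2.02e-07) in siCTRL and 2.85 (SE 0.14, adjusted p = 1.12e-08) in siMITF.

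UBE2L6 (ENSG00000156587, chromosome 11, 57551656 to 57568284, minus strand) had the largest log2 change with IFNγ of the 8 genes. It measured 0.966, 1.23 and 0.977 TPM in siCTRL and 168, 202 and 182 TPM in siCTRL + IFNγ. In siMITF the libraries held 0.684, 0.572 and 0.658 TPM, and in siMITF + IFNγ 157, 180 and 182 TPM. With IFNγ the siCTRL and siMITF libraries overlapped. Mean TPM was 174-fold higher with IFNγ in siCTRL and 271-fold higher in siMITF. The log2 changes were 6.49 (SE 0.10, adjusted p = 1.36e-13) and 6.73 (SE 0.10, adjusted p = 8.12e-14), which understate these folds because of the added 1 TPM.

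The ligases HERC5 and HERC6 are neighbours on chromosome 4 and differed in their values with IFNγ. HERC6 (ENSG00000138642) spans 88378739 to 88443097 on the plus strand and ends 14022 bases before HERC5 (ENSG00000138646) begins, at 88457119 to 88506163 on the same strand. HERC5 measured 7.64, 7.89 and 7.99 TPM in siCTRL and 8.56, 10.2 and 9.51 TPM with IFNγ. In siMITF it measured 5.03, 5.35 and 4.47 TPM, and with IFNγ 5.82, 5.74 and 5.53 TPM. Libraries with IFNγ lay above those without it in both backgrounds, by a small margin. The log2 difference was 0.24 (95% interval 0.03 to 0.44, adjusted p = 0.127) in siCTRL and 0.17 (−0.03 to 0.38, adjusted p = 0.213) in siMITF. In siCTRL the adjusted p fell to 0.0426 with libraries centred on their median and to 0.0361 with TPM rescaled without mitochondrial genes, at log2 differences of 0.25 and 0.26.

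HERC6, the closest relative of HERC5 and a ligase for ISG15 in mice, measured 1.21, 2.62 and 1.37 TPM in siCTRL and 4.35, 9.36 and 7.03 TPM with IFNγ. The siMITF libraries held 0.584, 0.874 and 0.701 TPM, and the siMITF + IFNγ libraries 3.72, 5.88 and 5.20 TPM. It was higher in all libraries with IFNγ than in any without. The log2 change was 1.52 (SE 0.24, adjusted p = 0.00104) in siCTRL and 1.77 (SE 0.24, adjusted p = 0.000214) in siMITF. HERC5 exceeded HERC6 by 4.80-fold in siCTRL and by 1.43-fold in siCTRL + IFNγ, as the geometric mean of the ratio of TPM over 3 libraries. The ratio was 6.95 in siMITF and 1.18 in siMITF + IFNγ. In siMITF + IFNγ replicate 2 it was 0.976, with HERC6 the higher.

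USP18, the protease that removes ISG15, rose with IFNγ from a lower start after MITF knockdown. The gene (ENSG00000184979) lies on the plus strand of chromosome 22 at 18150118 to 18177397. It measured 5.35, 4.67 and 5.08 TPM in siCTRL and 33.9, 39.2 and 35.5 TPM in siCTRL + IFNγ. In siMITF it measured 2.65, 2.89 and 2.71 TPM, and in siMITF + IFNγ 20.0, 19.7 and 20.3 TPM. None of the 4 conditions overlapped. Log2 changes with IFNγ were 2.62 (SE 0.09, adjusted p = 1.58e-10) and 2.48 (SE 0.09, adjusted p = 2.09e-10). USP41, a near-identical copy with which reads can be shared, was listed at 0.355 to 1.55 TPM, and adding its TPM to USP18 gave 2.40 and 2.31.

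UBD, the modifier that UBA6 activates, stayed low throughout. The gene (ENSG00000213886) lies on the minus strand of chromosome 6 at 29555515 to 29559732. It was listed at 0 in all 6 libraries without IFNγ. In siCTRL + IFNγ it was listed at 0.699, 0 and 0.655 TPM, and in siMITF + IFNγ at 1.32, 2.72 and 2.44 TPM. The siMITF + IFNγ libraries were therefore highest and did not overlap the others, at a level that stayed low. The log2 change with IFNγ was 1.63 (SE 0.21, adjusted p = 0.00012) in siMITF, a value that depends on the added 1 TPM because the untreated libraries are at 0. In siCTRL it was 0.50 (SE 0.21, adjusted p = 0.148), where the mean of neither condition reached 2 TPM, and without siCTRL + IFNγ replicate 2, the library listed at 0, it was 0.75 (adjusted p = 0.0178).

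UBD shares exon sequence with 2 annotated neighbours. Strand cannot assign reads from the shared bases, since the kit does not mark it and GABBR1 lies on the same strand as UBD. OR2I1P, on the opposite strand, was at a mean of 0.019 TPM in siCTRL, 0.276 in siCTRL + IFNγ, 0.0312 after MITF knockdown and 1.39 after both treatments. GABBR1, on the same strand, had means of 4.15, 3.64, 5.65 and 4.43 TPM in the same order. OR2I1P was thus highest in the same condition as UBD and GABBR1 was not, and the part of either in the UBD value was not tested.

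UBA6, which activates UBD and also ubiquitin, was the one member at a sizeable level in every condition. The gene (ENSG00000033178) lies on the minus strand of chromosome 4 at 67612652 to 67701155. It measured 24.4, 37.1 and 26.9 TPM in siCTRL, and 16.1, 39.7 and 29.2 TPM with IFNγ. In siMITF it measured 30.4, 39.5 and 29.0 TPM, and with IFNγ 26.5, 43.5 and 38.0 TPM. All conditions overlapped. The log2 difference with IFNγ was −0.12 in siCTRL (SE 0.28, adjusted p = 0.836) and 0.11 in siMITF (SE 0.28, adjusted p = 0.818).

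Of the 8 members, 5 counted as higher with IFNγ in siCTRL and 6 in siMITF, against 2.42% and 2.72% of all tested gene IDs. To count, a gene needed 3 things: a log2 change of 1 or more in size, a limma adjusted p under 0.05 and 2 TPM or more as the mean of one of the conditions compared. None fell, against 0.102% and 0.227% of gene IDs. UBE2L6, UBA7, HERC6 and UBD were under 2 TPM in both untreated conditions and were tested only through conditions with IFNγ, so they could count as higher and not as lower, and the counts describe the members without supporting more. Of the 4 members that reached 2 TPM without IFNγ, ISG15 and USP18 counted as higher in both backgrounds, and HERC5 and UBA6 in neither. The libraries did not overlap, with IFNγ higher, for 6 members in siCTRL and 7 in siMITF, against 11.7% and 12.1% of gene IDs. The median log2 change of the members was 1.86 in siCTRL and 2.13 in siMITF, beside −0.07 and −0.10 over all tested gene IDs. The same 4 members enter these medians only through IFNγ, so the medians too are a description. Both comparisons were made within their own siRNA background between different libraries. They took their spread from the same fit of all 12 libraries, so their p-values are not independent.

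MITF knockdown without IFNγ moved no member past all 3 thresholds, against 6.1% of gene IDs in either direction. Only ISG15, HERC5, USP18 and UBA6 reached 2 TPM in an untreated condition and could have counted. By adjusted p alone, USP18, HERC5 and UBE2L6 were lower, 3 of 8 against 13.8% of gene IDs. USP18 fell by 0.68 on the log2 scale (SE 0.09, adjusted p = 5.12e-05), a mean 1.83-fold lower. HERC5 fell by 0.57 (SE 0.09, adjusted p = 0.000419). UBE2L6 fell by 0.33 (SE 0.10, adjusted p = 0.0196) between levels near 1 TPM, and its adjusted p was 0.0728 without siCTRL replicate 2 and 0.0706 without siMITF replicate 2.

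HERC6 was also lower in every siMITF library than in any siCTRL library, at a log2 difference of −0.64 (SE 0.24, adjusted p = 0.059). When replicate numbers were fitted as a block, the adjusted p for HERC6 was 0.00228, and 18.9% of gene IDs were then lower. Over all alternatives its adjusted p ran from 0.00228 to 0.223, so the call depends on the setting. Its libraries and those of USP18, HERC5 and UBE2L6 did not overlap, 4 members against 22% of gene IDs in that direction. ISG15 differed by 0.10 (95% interval −0.37 to 0.57, adjusted p = 0.77) and UBA7 by −0.04 (SE 0.14, adjusted p = 0.846). UBD was listed at 0 in both conditions.

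In the presence of IFNγ, members differed with MITF knockdown in both directions. By adjusted p their counts were near the shares over all gene IDs, so neither count is a result about the members. UBD alone passed all 3 thresholds, with a log2 change of 1.13 (SE 0.21, adjusted p = 0.00108), 1 of 8 against 3.12% of gene IDs called higher. UBD reached a mean of 2 TPM in siMITF + IFNγ alone, so it was tested only through the condition where it is high and could count only as higher there. It rests on low values: without siCTRL + IFNγ replicate 2, the library listed at 0, the change was 0.89, and without siMITF + IFNγ replicate 2 the gene fell below the level required for testing. UBA7 rose by 0.60 (SE 0.14, adjusted p = 0.00612), short of a log2 change of 1, from a mean of 5.28 ± 0.887 to 8.60 ± 1.75 TPM (SD, n = 3). UBD and UBA7 were thus 2 of 8 higher by adjusted p, against 18.4% of gene IDs.

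USP18 and HERC5 fell by adjusted p in the same comparison, 2 of 8 against 14.7% of gene IDs. USP18 went from a mean of 36.2 ± 2.74 to 20.0 ± 0.287 TPM (SD, n = 3), a log2 change of −0.82 (SE 0.09, adjusted p = 1.12e-05). HERC5 fell by 0.64 (SE 0.09, adjusted p = 0.000199). ISG15 was lower in each siMITF + IFNγ library than in any siCTRL + IFNγ library, at 250 ± 17.01 beside 318 ± 18.7 TPM (SD, n = 3). Its log2 difference of −0.35 (95% interval −0.82 to 0.12) did not pass the test, with an adjusted p of 0.247. The adjusted p was 0.027 when only these 6 libraries were fitted. UBE2L6 differed by −0.09 (SE 0.10, adjusted p = 0.538).

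Under the replicate block 2 further members passed the adjusted p with IFNγ present. HERC6 had a log2 difference of −0.38 (adjusted p = 0.0394 with the block, 0.257 without), and its adjusted p was also 0.045 without siCTRL + IFNγ replicate 1. UBA6 had one of 0.39 (adjusted p = 0.0398 with the block, 0.316 without). With the block, 21% of gene IDs were lower and 25.3% higher. The members' median log2 change with siMITF was −0.19 without and −0.22 with IFNγ, beside 0.06 and 0.03 over all tested gene IDs.

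Whether the IFNγ response itself differed between siCTRL and siMITF was tested as the interaction, the log2 change with IFNγ in siMITF minus that in siCTRL. No member passed an adjusted p under 0.05 by limma, against 0.947% of gene IDs. At an unadjusted p under 0.05 there were 2 members, UBD and UBA7, against 7.67% of gene IDs. UBD was tested only through siMITF + IFNγ, where it is high, so this count describes the members without supporting more. UBD had an interaction of 1.13, the same quantity as its siMITF effect with IFNγ since its untreated libraries are at 0 (95% interval 0.50 to 1.77, adjusted p = 0.134), and the adjusted p was 0.0385 without siMITF + IFNγ replicate 1. UBA7 had one of 0.65 (0.21 to 1.09, adjusted p = 0.282), and the adjusted p was 0.0303 after quantile normalization. ISG15 had the lowest value, −0.45 (−1.12 to 0.22, adjusted p = 0.876). For USP18 the interaction was −0.14 (adjusted p = 0.92). For UBE2L6 it was 0.24 (adjusted p = 0.794), and over the alternatives it ran from 0.18 to 0.56, the highest with a pseudocount of 0.1, with adjusted p from 0.0544 to 0.999.

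On the TPM scale the combined treatment was also set against the sum of the single effects, computed by replicate number and given without a test. ISG15 had a combined mean of 250 TPM where the sum was 319, a difference of −69.3 ± 27.7 TPM (SD, n = 3) that was negative in 3 of 3 replicates. USP18 had 20.0 TPM where the sum was 33.9, a difference of −13.9 ± 3.39 TPM (SD, n = 3), also negative in 3 of 3. UBA7 had 8.60 TPM where the sum was 5.24, a difference of 3.35 ± 1.78 TPM (SD, n = 3) that was positive in 3 of 3. The difference for UBD was 0.625, 2.72 and 1.79 TPM. UBE2L6 showed no single direction, at −10.5 ± 11.1 TPM (SD, n = 3), and neither did HERC6, at −0.962 ± 0.883 TPM. HERC5 was negative in 3 of 3, at −0.839 ± 0.966 TPM. UBA6, which passed no test for IFNγ, was positive in 3 of 3, at 4.18 ± 2.74 TPM, so one sign in 3 replicates is weak evidence here.

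The ratios between the RNAs were compared within each library. ISG15 RNA stood to USP18 RNA at a ratio of 1.64 in siCTRL and 3.22 in siMITF, each a geometric mean of the TPM ratio over 3 libraries. These libraries overlapped, at 1.35 to 2.16 and 2.15 to 4.21 (exact two-sided permutation p = 0.2). With IFNγ it stood at 8.79 in siCTRL, with libraries from 7.74 to 10.0, and at 12.5 in siMITF, with libraries from 12.02 to 13.3. With IFNγ the siMITF libraries thus lay above the siCTRL libraries, with an exact two-sided permutation p of 0.1, the smallest that 3 against 3 allows. The ratio of UBE2L6 to UBA7 was 2.96 in siCTRL and 35.0 in siCTRL + IFNγ, and 2.05 in siMITF and 20.4 in siMITF + IFNγ. The siMITF libraries lay below the siCTRL libraries both without and with IFNγ (exact two-sided permutation p = 0.1 each). Without IFNγ this ratio rests on UBA7 at 0.226 to 0.413 TPM.

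UBE2L6 also changed place with its relative UBE2L3, a conjugating enzyme of the ubiquitin system. The ratio of UBE2L6 to UBE2L3 was 0.0113 in siCTRL and 1.70 with IFNγ, and 0.00663 in siMITF and 1.62 with IFNγ. The activating enzymes did not change place: the ratio of UBA7 to UBA6 was 0.0122 in siCTRL and 0.197 with IFNγ, and 0.00949 in siMITF and 0.241 with IFNγ. In TPM, UBA6 therefore exceeded UBA7 in all conditions.

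Genes around the members were counted from lists written for this work. The lists were written with earlier results of these data known, so the counts are descriptions. Among 14 listed partners of ISG15, UBD or USP18, 2 rose with IFNγ in siCTRL, against 2.42% of gene IDs. IFNAR2, a type I interferon receptor chain to which USP18 binds, had a log2 change of 1.02 (adjusted p = 2.52e-06). STAT2 had one of 2.49 (adjusted p = 3.92e-09). In siMITF 3 rose, against 2.72% of gene IDs: IFNAR2 at 1.08, STAT2 at 2.49 and the ubiquitin ligase TRIM25 at 1.11 (adjusted p = 0.00217). TRIM25 was at 0.55 in siCTRL (adjusted p = 0.105), and its interaction was 0.56 (adjusted p = 0.745). None of the 14 passed all thresholds for siMITF. By adjusted p without IFNγ, TRIM25 fell by 1.00 and the autophagy receptor SQSTM1 by 0.93, while HDAC6, a deacetylase that binds UBD, rose by 0.60 and USP21 by 0.27. That is 2 of 14 lower and 2 of 14 higher, against 13.8% and 21% of gene IDs, so neither count is a result about the partners.

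With IFNγ, siMITF lowered SQSTM1 by a log2 change of −0.69 and the proteasome subunit PSMD4 by −0.19 and raised HDAC6 by 0.71, by adjusted p, which is 2 of 14 lower and 1 of 14 higher against 14.7% and 18.4% of gene IDs. Of the paralogues of members, 6 of 7 were tested and none passed all thresholds in any comparison. With IFNγ, HERC1 rose by 0.46 in siCTRL (adjusted p = 0.0202) and by 0.32 in siMITF (adjusted p = 0.0765). HERC1 (−0.61 without and −0.75 with IFNγ) and HERC3 (−0.86 and −0.69) fell with siMITF by adjusted p, 2 of 6 against 13.8% and 14.7% of gene IDs. HERC4 differed by 0.22 and 0.26 in the other direction (adjusted p = 0.109 and 0.0673). None of 8 other activating enzymes and none of 17 tested genes for other ubiquitin-like modifiers passed all thresholds in any comparison. Their median log2 changes with IFNγ in siCTRL were −0.15 and −0.03. The members' median was 1.86, in a list where UBE2L6, UBA7, HERC6 and UBD were tested only through IFNγ.

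Of 4 listed interferon transcription factors 3 were tested. All 3 rose with IFNγ, against 2.42% of gene IDs in siCTRL and 2.72% in siMITF. The list was written with earlier results of these data known, and STAT2 was also counted among the partners. The count is therefore a description and supports no more. IRF7 stayed under 2 TPM, was not tested and was not higher with IFNγ. Its means were 0.377 TPM in siCTRL and 0.275 with IFNγ, and 0.585 TPM in siMITF and 0.449 with IFNγ. IRF1 changed by 4.66 in siCTRL and 5.25 in siMITF, STAT2 by 2.49 in each, and IRF9, the DNA-binding partner of STAT2, by 2.24 and 2.86. IRF9 had an interaction of 0.61 (adjusted p = 0.0448), having fallen by 0.69 with siMITF in untreated cells. It was 1 of 3 called for the interaction, against 0.947% of gene IDs, and was not followed through the alternative settings. In every library its TPM was the same as that of 1 other gene ID, so the values of these gene IDs cannot be told apart. IRF1 had one of 0.59 (adjusted p = 0.21) and was higher by 0.82 with siMITF under IFNγ (adjusted p = 0.000228).

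The genes whose log2(TPM + 1) followed each member most closely over the 12 libraries are given as a description, since the libraries share 4 conditions. ISG15 was most like OASL (Pearson r = 0.995), HLA-E and ALPK1, and UBE2L6 most like BATF2 (r = 0.999), IFI35 and IFIT3. UBA7 was most like TCAF2, APOL3 and IRF1, each with r of 0.995 or 0.996. USP18 was most like SP110 (r = 0.995), FYB1 and IFI6, and HERC6 most like TLR3 (r = 0.996), KDSR and LIMA1. UBD was most like IL15RA (r = 0.964), HLA-DPA1 and PHF24. HERC5 was most like PLXNC1 (r = 0.989), ZNF330 and CTSL, and UBA6 most like SLC6A6 (r = 0.992), SEC24A and RAB3GAP2.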

How the data were processed

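RNA of 624Mel cells was sequenced in 12 libraries (TruSeq RNA v2, not strand-specific). The authors trimmed reads with Trimmomatic 0.39, quantified them with kallisto on Ensembl GRCh38 and deposited TPM per gene. They tested expression with DESeq2 1.26.0 on counts, which are not used here. The Ensembl release is not given in the sources used here. Depth is unknown for TPM, so no counting interval or floor is given.

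For 12773 gene IDs, those averaging 2 TPM or more in any condition, log2(TPM + 1) was fitted with limma 3.58.1 in R 4.3.3, with 1 coefficient per condition and a trended empirical Bayes prior. Tests were two-sided with Benjamini-Hochberg adjustment over all tested IDs. The pseudocount understates changes of low genes. The labels do not say whether libraries of a condition came from separate cultures, while the study's methods speak in general of independent biological replicates, so p-values measure the spread between these libraries. Symbols and positions are from GENCODE 44, and the remaining steps used Python 3.11.15, numpy 2.4.6, pandas 2.3.3 and, for plots, matplotlib 3.10.9. Simulated data with known changes were used to test the fit.

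All 8 members are named. Other genes come from written lists and are named where a result turns on them or as the 3 most like a member. Members and lists were chosen with earlier results of these data known. After subtracting condition means, 18 pairs of libraries sharing a replicate number in the labels correlated across genes at 0.102 to 0.625 (median 0.279), and 36 pairs with different numbers at −0.474 to 0.226. Libraries sharing a number are thus related, but the main fit and the permutation tests hold no replicate term. A block for the replicate numbers was fitted as an alternative. Other alternatives were pseudocounts of 0.1 and 0.5, a minimum mean of 5 TPM, other scalings, a fit of only the compared conditions, moderation without a trend, and leaving out each library. Adding the TPM of USP41 to USP18 was chosen after seeing the data.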

Additional observations from a re-analysis of the deposited data

How the results depend on the processing

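Over 24 alternative settings, 886 member effects kept their direction and their call under all thresholds together, 8 changed sign, 2 gained and 1 lost the call. By adjusted p alone, 21 member effects lay on the other side of 0.05, 10 of them HERC6 for siMITF without IFNγ. The count of members called stayed within 1.5 times in 107 cases. A minimum mean of 5 TPM across libraries left 5 members to test, without UBD, UBA7 and HERC6, and called 3 for IFNγ in siCTRL, 3 in siMITF and 0 for siMITF with IFNγ. Quantile normalization called 1 member for the interaction, UBA7 at 0.73. Leaving out 1 library gave 5 to 5 members for IFNγ in siCTRL, 5 to 6 in siMITF, 0 to 0 for siMITF without IFNγ, 0 to 1 with IFNγ (0 without siCTRL + IFNγ replicate 2, where UBD was at 0.89, or siMITF + IFNγ replicate 2) and 0 to 1 for the interaction (1 without siMITF + IFNγ replicate 1, UBD at 1.34). The changes of sign were all in values that passed no test and came from leaving out 1 library. UBA6 ran from −0.40 to 0.22 for IFNγ in siCTRL, being 0.05 without siCTRL replicate 2 and 0.22 without siCTRL + IFNγ replicate 1. It ran from −0.040 to 0.31 for IFNγ in siMITF and from −0.12 to 0.51 for the interaction. HERC6 ran from −6.2e-05 to 0.48 for the interaction. ISG15 ran from −0.11 to 0.38 for siMITF without IFNγ, being −0.07 without siCTRL replicate 2 and −0.11 without siMITF replicate 2. UBA7 ran from −0.073 to 0.0062 there. With the replicate block no member gained or lost a call past all thresholds: 5, 6, 0, 1 and 0 members were called, and the interaction of UBD had an adjusted p of 0.0848. The block changed no other adjusted p of a member across 0.05 than those of HERC6 and UBA6 given above. Over all genes, the interaction was called for 121 gene IDs, against 276 with the block, 263 with median centring, 294 with quantile normalization, 220 without mitochondrial genes, 65 with the minimum of 5 TPM, 68 with a pseudocount of 0.1 and 70 to 125 with 1 library left out. IFNγ in siMITF was called for 377 gene IDs, against 245 with that minimum. The cause of these moves was not tested, beyond the fewer genes tested under the higher minimum.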
